A study of Mus musculus with 6 samples.

Results

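The genes of the PACAP and VIP neuropeptide system were followed in the medial prefrontal cortex of mice on 2 diets. The system has 5 genes. Adcyap1 and Vip encode the precursors of the peptides, Adcyap1r1 encodes the PACAP receptor PAC1, and Vipr1 and Vipr2 encode the shared receptors VPAC1 and VPAC2. Every probe set (a group of short probes that reads 1 gene) annotated to exactly 1 of these symbols was taken, which gave 9 of the 45101 probe sets in the table (5 of 18193 genes): 2 for Adcyap1, 3 for Adcyap1r1, 1 for Vip, 2 for Vipr1 and 1 for Vipr2. Of these 9, 7 passed a filter on low values (a log2 value above 4 on at least 3 of the 6 arrays), and each of the 7 was above 4 on all 6 arrays. The other 2 were above 4 on none.

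All animals were male 129S1/SvImJ mice of 8 to 10 weeks, an inbred strain known for poor fear extinction. Of these, 3 received the diet labelled ZnR, which the labels call a zinc diet (mice 3, 7 and 11), and 3 the control diet (mice 1, 5 and 9). The labels do not state what the ZnR diet contained. All 6 mice, controls included, had gone through fear extinction training, and prefrontal tissue of both hemispheres was collected 2 h later. There was no untrained group, so every value below describes trained mice. Each mouse gave 1 Affymetrix Mouse430_2 array, so precision is limited by having 3 arrays per diet.

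PACAP and VIP are closely related peptides of the secretin family. PAC1 binds PACAP with much higher affinity than VIP, whereas VPAC1 and VPAC2 bind both, and all 3 receptors act mainly through the G protein Gs and adenylyl cyclase to raise cyclic AMP. In the cerebral cortex PACAP is made mostly by glutamatergic neurons, VIP marks a class of GABAergic interneurons that inhibit other interneurons, and PAC1 signalling is known for its part in stress and fear responses.

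The arrays had medians over all probe sets of 4.46 to 4.52 log2 units. The array controls for 18S ribosomal RNA were at 8.44 in ZnR mouse 3 and 9.09 in control mouse 1, against 10.9 to 12.4 in the other 4 mice, so this pair was treated as a possible batch. It holds 1 mouse of each diet, and differences inside this pair and among the remaining mice are given where they bear on a result. Markers of the labelled tissue were present: of 8 genes listed for cortical excitatory neurons, 7 had a usable probe set and 6 of those were above 4 on every array. All 8 measured markers of striatal medium spiny neurons were above 4 on every array too. This check therefore does not set cortex apart from striatum, and both lists differed by diet, as given below. Across all 25381 probe sets that passed the filter, 256 were lower and 117 higher in ZnR mice at an adjusted p under 0.05.

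Both peptide precursor genes fell in ZnR mice. Adcyap1 was 2.72-fold lower and Vip 2.00-fold lower, and no receptor probe set passed the test. In counts, 3 of the 7 member probe sets tested were lower past the threshold and 0 higher (limma, p-values adjusted by Benjamini-Hochberg across the whole filtered table), where 1.47% of all probe sets tested passed in either direction, 1.01% lower and 0.461% higher. At an unadjusted p under 0.05 the count was 5 of 7. Such p-values were common: the weakest of the 5, Adcyap1r1 1429022_at, ranked 3045 by p among the 25381 probe sets tested. The share of all probe sets under this cut was not counted. This count and those given for the lists below are therefore a description only. The median log2 difference, ZnR minus control, was -0.45 over the 7 and 0.02 over all probe sets tested. The 7 are not independent readings, since 2 of them share the Adcyap1 transcript and 3 the Adcyap1r1 transcript. In tissue made of many cell types, fewer cells of a type and less RNA per cell cannot be told apart.

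Adcyap1 was read by 2 probe sets, and both separated the diets. The first, 1423427_at, measured log2 values of 5.52, 5.43 and 5.24 in ZnR mice 3, 7 and 11, against 6.56, 6.80 and 7.16 in control mice 1, 5 and 9. Every ZnR mouse lay below every control mouse, and the gap of 1.04 log2 units between the nearest mice of the diets was wider than the range within either diet (0.28 in ZnR mice and 0.60 in controls). The means were 5.40 ± 0.14 in ZnR mice and 6.84 ± 0.30 in controls (SD, n = 3 each), a log2 difference of -1.44 ± 0.16 (SE, limma adjusted p = 0.0179) or 2.72-fold, with a 95% interval of 2.11 to 3.52. The second probe set, 1441778_at, measured 4.39, 4.82 and 4.66 in the ZnR mice and 6.09, 5.87 and 6.52 in the control mice. It too had no overlap between diets. Its log2 difference was -1.54 ± 0.18 (SE, limma adjusted p = 0.0207), or 2.90-fold with a 95% interval of 2.16 to 3.89. The ZnR values of 1441778_at lie near the array medians, where the normalization compresses low values. The size of this fold is therefore less certain. Of 25381 probe sets tested, 20 had a larger absolute log2 difference than the first Adcyap1 probe set and 10 a larger one than the second.

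Adcyap1 was lower in ZnR mice both inside and outside the low-18S pair, while its call rested on several mice. Inside that pair the log2 difference was -1.04 for 1423427_at and -1.70 for 1441778_at, and for the other 4 mice it was -1.65 and -1.45. The limma adjusted p of 1423427_at rose above the threshold without ZnR mouse 3 (0.0732), ZnR mouse 11 (0.0673) or control mouse 5 (0.0815), and that of 1441778_at without the same mice (0.0785, 0.0694 and 0.0686). With ZnR mouse 7, control mouse 1 or control mouse 9 left out, both passed.

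Vip was read by 1 probe set, 1428664_at. Its log2 values were 8.60, 8.98 and 8.78 in ZnR mice 3, 7 and 11, against 9.78, 9.67 and 9.91 in control mice 1, 5 and 9. The diets did not overlap, and the nearest mice were 0.69 log2 units apart, against a range of 0.38 within ZnR mice and 0.24 within controls. Vip averaged 8.79 ± 0.19 in ZnR mice and 9.79 ± 0.12 in controls (SD, n = 3 each), a log2 difference of -1.0 ± 0.12 (SE, limma adjusted p = 0.0208), with a 95% interval of the fold of 1.65 to 2.43. For the low-18S pair alone the difference was -1.18, and without that pair it was -0.91. When 1 mouse was left out, Vip passed only without ZnR mouse 7 (limma adjusted p = 0.0324); it was 0.0781 without ZnR mouse 3, 0.0702 without ZnR mouse 11, 0.0516 without control mouse 1, 0.0815 without control mouse 5 and 0.0546 without control mouse 9.

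**Figure D1:**
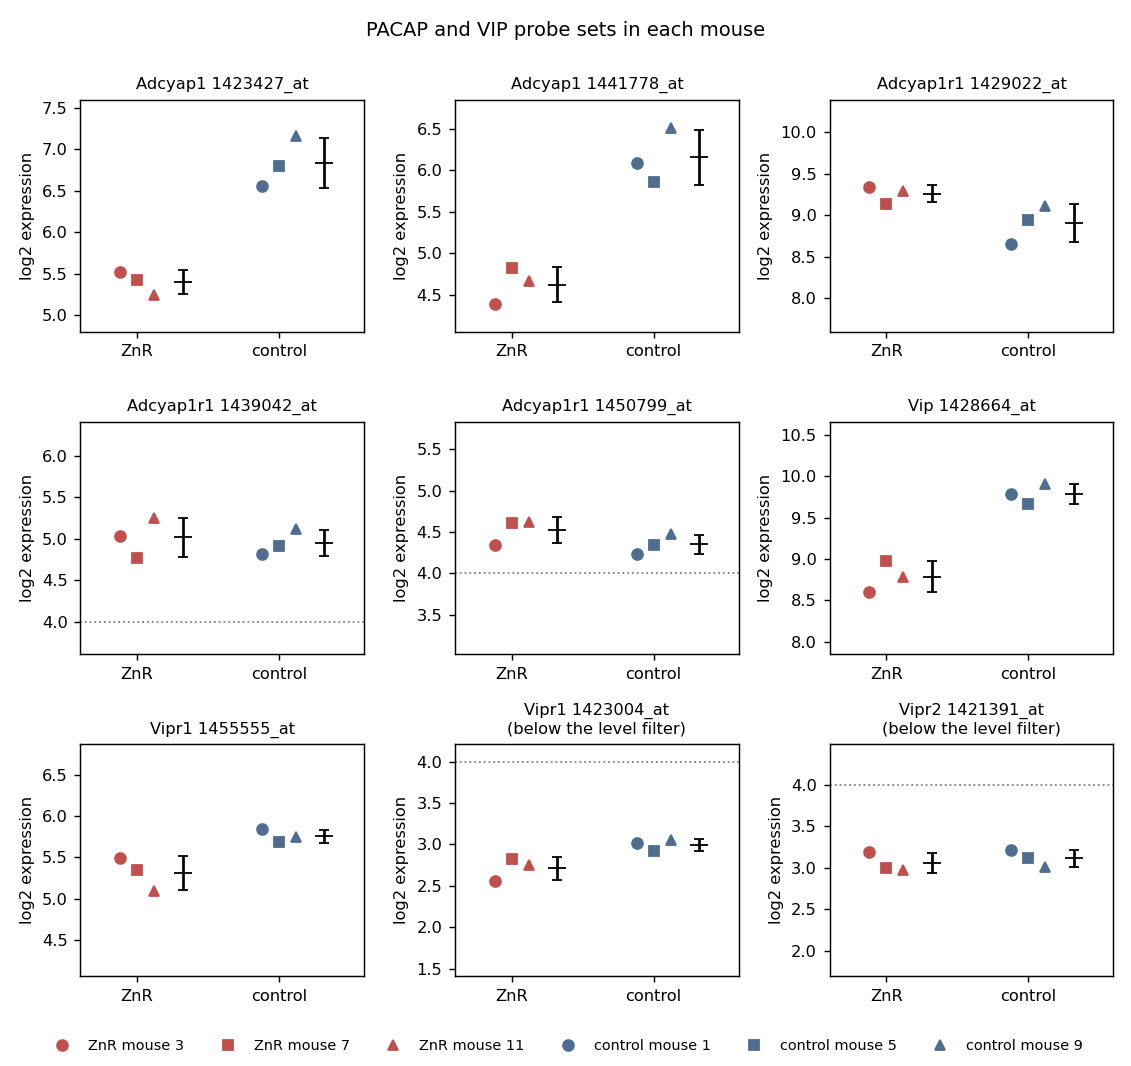
Log2 expression of the 9 PACAP and VIP probe sets in each mouse, with 1 panel per probe set, ZnR mice in red left of control mice in blue, and the mean with its SD in black; all panels span the same number of log2 units and the dotted line, where in range, is the filter at 4. Both Adcyap1 panels and the Vip panel show ZnR mice below all control mice, while 1423004_at of Vipr1 and the Vipr2 probe set lie below the filter on every array.

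**Figure D2:**
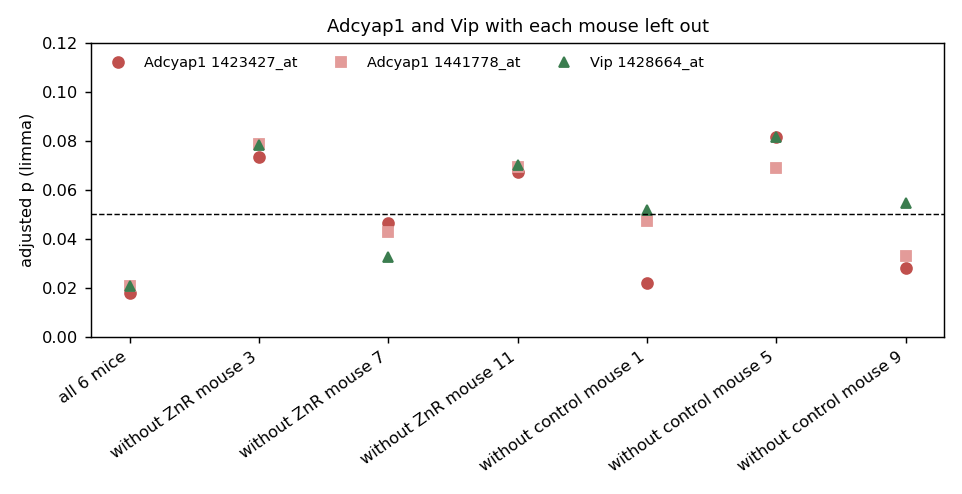
Adjusted p from limma for both Adcyap1 probe sets and for Vip, with all 6 mice and with each mouse left out; the dashed line is the threshold of 0.05. With all mice the 3 values lie at 0.0179 to 0.0208, and without control mouse 5, ZnR mouse 3 or ZnR mouse 11 all 3 lie above the line.

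Both precursor genes are known as targets of cyclic AMP signalling, and the stretches before their starts are shown. Whether this signalling had a part in the fall of either gene was not tested. In RefSeq promoter windows on build GRCm38.p6 (250 bases before to 50 after a gene start; all 5 genes matched, with 2 windows for Adcyap1), the first Adcyap1 window and the Vip window both hold TGACGTC on the plus strand, 7 bases of the 8-base cyclic AMP response element TGACGTCA. It begins 91 bases before the start of Adcyap1 and 79 bases before that of Vip. The second Adcyap1 window holds the same copy, 242 bases before its own, later start. The bases from 120 to 41 before each start, chr17:93198897-93198976 for Adcyap1 and chr10:5639098-5639177 for Vip, both on the plus strand, are given 5′ to 3′ with TGACGTC in capitals.
Adcyap1: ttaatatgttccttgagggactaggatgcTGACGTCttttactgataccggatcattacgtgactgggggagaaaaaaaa
Vip: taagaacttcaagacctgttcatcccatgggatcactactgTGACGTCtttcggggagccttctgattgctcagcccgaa

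The 10 bases TGACGTCTTT are the longest run that the Vip window shares with either Adcyap1 window. On either strand, TGACGTC was in 3.21% of all 32851 mouse promoter windows of the same length, the longer run in 0.07%, and the complete TGACGTCA, which contains TGACGTC, in 1.79%. No window of the 5 genes held the complete element. The shorter TGACG, which lies within the others, was in 20.8% of all windows and among the receptors was found in that of Vipr1. The motif TGACGTC was chosen after the windows had been read, and a match describes the letters only. The 10-base run was defined by these same windows. Its share of 0.07% therefore does not measure how unusual it is for 2 windows to share a run of that length.

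No probe set of PAC1, the PACAP receptor, passed the test. Of the 3 Adcyap1r1 probe sets, 1429022_at measured 9.34, 9.14 and 9.30 log2 units in ZnR mice 3, 7 and 11, against 8.65, 8.94 and 9.11 in control mice 1, 5 and 9. The diets did not overlap, but the nearest mice were 0.03 apart, less than the range within either diet. The log2 difference of 0.36 ± 0.13 (SE, 95% interval 0.05 to 0.66) had a limma adjusted p of 0.221. For the low-18S pair alone it was 0.68, and without that pair 0.19. The other probe sets overlapped between diets: 1439042_at differed by 0.07 ± 0.14 (95% interval -0.26 to 0.40, adjusted p = 0.859) and 1450799_at by 0.17 ± 0.11 (-0.09 to 0.43, adjusted p = 0.50). These intervals do not reach the log2 difference of either Adcyap1 probe set. However, 1439042_at (4.77 to 5.25) and 1450799_at (4.24 to 4.62) read low, near the array medians. Compression of low values by the normalization can hide part of a change in these 2. A comparison of ligand and receptor within each mouse, added after the values were seen, gave Adcyap1 minus Adcyap1r1 (1423427_at and 1429022_at, each centred on the 6 mice) as -0.85, -0.75 and -1.09 in ZnR mice 3, 7 and 11, against 0.87, 0.82 and 1.01 in control mice 1, 5 and 9. The mean difference was -1.80 (exact permutation p = 0.1, 2-sided, n = 3 each), the smallest p that 3 mice against 3 allow. That outcome was fixed in advance, since every ZnR mouse was lower in 1423427_at and higher in 1429022_at than every control mouse. The comparison is therefore a description only.

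Astrocytes are known to carry PAC1 as neurons do, and their markers were read beside it. Of 8 astrocyte markers, all measured, Gfap, the intermediate filament of astrocytes, rose (log2 difference 0.79 ± 0.10 SE, limma adjusted p = 0.0214), and 7 did not pass. With array weights Aldh1l1 passed too (0.40, limma adjusted p = 0.0272). With each gene read by 1 probe set, 1.92% of all 11749 genes tested passed (1.27% lower and 0.655% higher), and the gene lists below are counted against this background. All 8 were on average higher in ZnR mice, with a median difference of 0.13, and the mean of the list centred on the 6 mice ran from 0.08 to 0.15 in ZnR mice and from -0.17 to -0.06 in control mice. Its part in the Adcyap1r1 values was not tested.

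No probe set of the VPAC receptors passed the test. For Vipr1, the probe set that passed the filter, 1455555_at, measured 5.50, 5.34 and 5.09 in ZnR mice 3, 7 and 11 and 5.84, 5.68 and 5.75 in control mice 1, 5 and 9. The diets did not overlap, with the nearest mice 0.19 log2 units apart. The difference of -0.45 ± 0.12 (SE), or 1.36-fold, did not pass (limma adjusted p = 0.116; 95% interval of the fold 1.12 to 1.65), though it did with array weights (-0.41, adjusted p = 0.0477). Vipr1's other probe set, 1423004_at, stayed below the filter on all arrays, at 2.56, 2.83 and 2.75 in the ZnR mice and 3.01, 2.92 and 3.05 in the control mice. The Vipr2 probe set, 1421391_at, was also below it throughout, at 3.19, 3.0 and 2.97 in the ZnR mice, against 3.21, 3.12 and 3.01 in the control mice. These values lie in the range that the normalization compresses, so no call was made, and a change in Vipr2 was not detectable with this probe set. In a fit without the filter the 2 probe sets differed by -0.28 ± 0.10 (adjusted p = 0.269) and -0.06 ± 0.10 (adjusted p = 0.884).

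Counted over the 7 probe sets tested, 5 had no overlap between the diets, where 23.7% of all probe sets tested had none. Of the 5, the Adcyap1 pair, Vip and Vipr1 were lower and Adcyap1r1 1429022_at higher in ZnR mice. Vip minus Vipr1 within each mouse, also added after the values were seen, was -0.65, -0.12 and -0.06 in ZnR mice 3, 7 and 11 and 0.19, 0.23 and 0.41 in control mice 1, 5 and 9, a mean difference of -0.55 (exact permutation p = 0.1, 2-sided, n = 3 each, the smallest possible). ZnR mouse 3 lay furthest from the control mice.

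**Figure D3:**
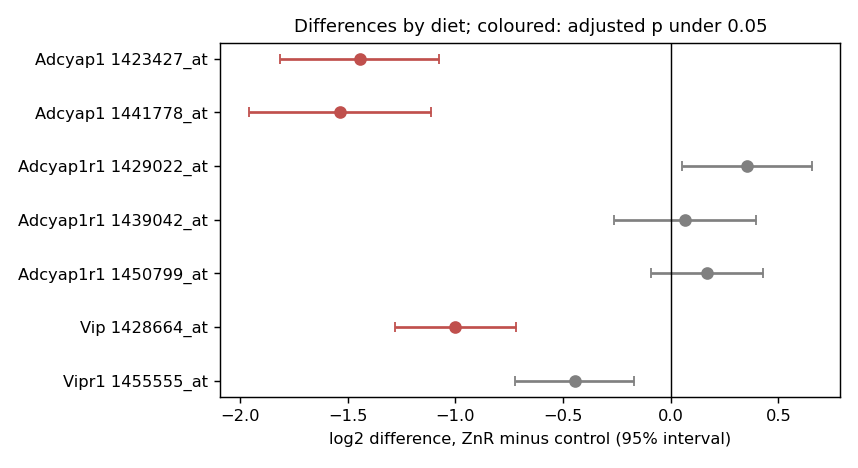
Log2 difference, ZnR minus control, of the 7 PACAP and VIP probe sets tested, with 95% intervals from limma; red marks an adjusted p under 0.05. Both Adcyap1 probe sets (-1.44 and -1.54) and Vip (-1.0) lie well left of 0, Vipr1 lies at -0.45 in grey, and the Adcyap1r1 probe sets lie between 0.07 and 0.36.

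PACAP is made by cortical excitatory neurons, and the markers of these neurons fell in the same arrays. Of the 7 measured, 5 fell (Nrn1, Slc17a7, Tbr1, Neurod2 and Neurod6) and 2 did not pass. Those 2 were Camk2a (-0.18, with its probe sets reaching -0.73) and Emx1 (-0.41, with values of 3.99 to 4.52, near the filter). Emx1 did pass with array weights (-0.40, limma adjusted p = 0.0169). Slc17a7, the main vesicular glutamate transporter of cortex, measured 8.86, 9.15 and 9.0 in ZnR mice 3, 7 and 11, against 10.28, 10.05 and 9.93 in control mice 1, 5 and 9 (log2 difference -1.08 ± 0.12 SE, limma adjusted p = 0.0182). The median difference of the list was -0.84, against 0.03 over all genes, and its centred mean ran from -0.51 to -0.34 in ZnR mice and from 0.37 to 0.47 in controls. The difference in Adcyap1 (-1.44) was larger than that in this mean, which the 2 markers that did not pass make smaller. As an estimate it was also larger than that of each single marker, the nearest being Nrn1 (-1.27 ± 0.10 SE, against -1.44 ± 0.16 SE for Adcyap1). Adcyap1 and Nrn1 are close for these errors, and the gap between them was not tested. A mean without Camk2a and Emx1 was not computed. Adcyap1 minus the marker mean was -0.09, -0.33 and -0.54 in ZnR mice 3, 7 and 11, against -0.02, 0.31 and 0.67 in control mice 1, 5 and 9. The diets did not overlap, although ZnR mouse 3 and control mouse 1, the low-18S pair, lay close together. The mean difference was -0.64 (exact permutation p = 0.1, 2-sided, n = 3 each, the smallest possible), and it ranged from -0.81 to -0.46 with each mouse left out. Whether the marker change accounts for any part of the Adcyap1 fall was not tested.

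VIP is made by interneurons, and the markers of VIP cells overlapped between the diets as a list. Of 9 co-markers, 6 were measured, while Htr3a, Chat and Crispld2 were below the filter. Cck, the cholecystokinin gene, which excitatory neurons also express, fell (10.94, 11.06 and 11.08 in ZnR mice 3, 7 and 11, against 12.13, 12.02 and 12.07 in control mice 1, 5 and 9; log2 difference -1.04 ± 0.08 SE, limma adjusted p = 0.00624). The other 5 did not pass: Calb2, which encodes the calcium-binding protein calretinin, measured -0.22, Adarb2 -0.25, the homeobox gene Prox1 -0.03, the tachykinin gene Tac2 0.15 and the neuropeptide Y receptor gene Npy2r 0.70. The centred list mean ran from -0.31 to 0.20 in ZnR mice and from -0.07 to 0.24 in controls, which overlap. Vip minus this mean was -0.62, -0.51 and -0.20 in ZnR mice 3, 7 and 11, against 0.57, 0.37 and 0.38 in control mice 1, 5 and 9, a mean difference of -0.88 (exact permutation p = 0.1, 2-sided, n = 3 each, the smallest possible). It stayed between -1.01 and -0.80 with each mouse left out. The co-marker mean varied widely between mice of a diet (SD 0.21, against 0.08 for the excitatory marker mean). Tac2 spanned 6.16 to 7.55 in ZnR mice and Npy2r 4.99 to 6.83 over all mice, while Cck, Adarb2, Calb2 and Prox1 were on average lower. A mean without Tac2 and Npy2r was not computed. The overlap therefore does not show that the markers of VIP cells were unchanged.

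Set against the excitatory marker mean, a comparison added after the values were seen, Vip did not separate the diets. Vip minus that mean was -0.18, 0.05 and -0.17 in ZnR mice 3, 7 and 11 and 0.03, 0.02 and 0.25 in control mice 1, 5 and 9 (mean difference -0.20, exact permutation p = 0.3, 2-sided, n = 3 each). Of 10 markers of other interneurons, none passed in limma, while 7 had an unadjusted p under 0.05 and 5 were on average higher and 5 lower. In alternative fits, 6 passed with array weights and 4 with a variance trend, in both directions. With the stricter filter 1 passed, as did 1 without control mouse 1. The GABA vesicle transporter gene Slc32a1 measured 0.56 ± 0.11 (SE, adjusted p = 0.0607), the neuropeptide Y gene Npy -0.44 ± 0.10 (adjusted p = 0.0810) and Lamp5 -0.39 ± 0.10 (adjusted p = 0.102). The median difference of this list was -0.01, and it turned to 0.02 without ZnR mouse 11, 0.01 without control mouse 9 and 0.05 with all probe sets of a gene averaged.

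**Figure D4:**
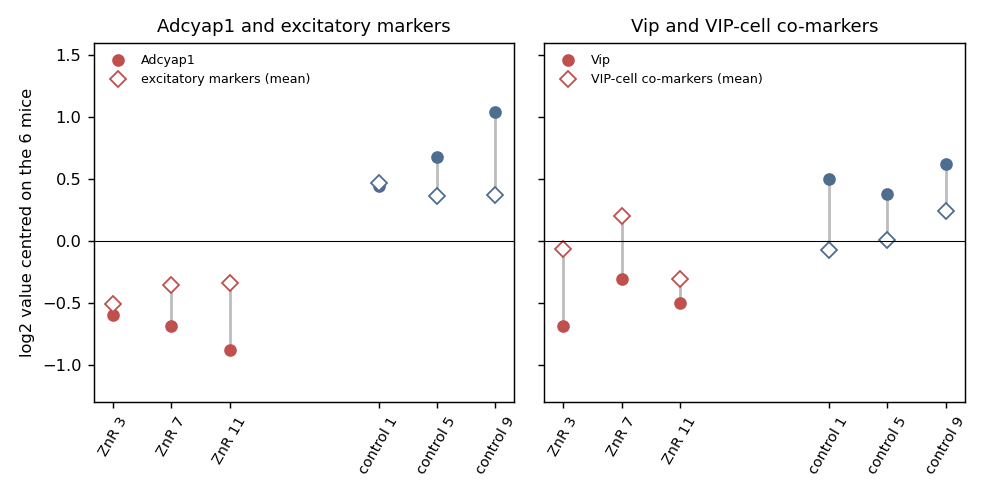
Log2 values centred on the 6 mice, ZnR mice in red left of control mice in blue: filled circles are Adcyap1 (left panel) and Vip (right panel), open diamonds the mean of 7 excitatory neuron markers (left) and of 6 VIP-cell co-markers (right), and a grey line joins the values of 1 mouse. The excitatory marker mean moves the same way as Adcyap1 but by less, while the VIP-cell co-markers overlap between diets.

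Downstream of the receptors, no gene of the signalling list passed. Of 25 genes listed for PACAP and VIP signalling inside the cell, 23 were measured, and 0 rose or fell in limma, with 5 at an unadjusted p under 0.05. Their median difference was -0.07, with 17 on average lower and 6 higher, and the differences ran from -0.43 to 0.41. Adenylyl cyclases, the enzymes that make cyclic AMP, held both ends of that range. Adcy1, the calcium-stimulated cyclase of cortex and hippocampus, measured 11.83, 11.75 and 11.90 in ZnR mice 3, 7 and 11, against 12.41, 12.21 and 12.16 in control mice 1, 5 and 9 (log2 difference -0.43 ± 0.10 SE, adjusted p = 0.0828). Adcy5, the main striatal cyclase, measured 11.91, 11.75 and 11.82 in the ZnR mice, against 11.57, 11.45 and 11.23 in the control mice (0.41 ± 0.11 SE, adjusted p = 0.118). Neither gene overlapped between diets. Adcy9 measured -0.28 ± 0.09 (adjusted p = 0.169). With a variance trend in limma, Adcy1 and Prkar1b passed as lower and Adcy5 as higher, and with array weights Adcy1 and Adcy9 passed as lower and Adcy5 as higher.

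Markers of striatal medium spiny neurons, which carry Adcy5, were higher in the same arrays. Of 8 measured, Drd2 and Gpr6 rose and 6 did not pass, all 8 were on average higher, and the centred list mean ran from 0.17 to 0.39 in ZnR mice and from -0.50 to -0.06 in controls. Markers of ventricle-lining cells were higher too, with Clic6 and Tmem212 risen among 6 measured and a centred mean of 0.38 to 0.63 in ZnR mice and -1.05 to -0.14 in controls. The part of either in the values of the PACAP and VIP genes was not tested.

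No gene of the machinery that makes, stores and degrades neuropeptides passed. Of 11 genes for processing, storage and breakdown, 9 were measured and 0 passed in limma, with 1 at an unadjusted p under 0.05. That gene was Mme, which encodes the peptidase neprilysin (0.37 ± 0.15 SE, adjusted p = 0.268). The median difference was 0.04. Chgb, a granin of dense-core vesicles, measured -0.17 ± 0.08 (adjusted p = 0.362), and Pcsk1n, an inhibitor of a prohormone convertase, 0.15 ± 0.11 (adjusted p = 0.522).

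Other peptides and receptors of class B, the receptor class of PAC1, VPAC1 and VPAC2, were mostly below the filter. Of 27 listed, 9 were measured and 0 passed in limma, with 3 at an unadjusted p under 0.05. Those 3 were on average lower: the parathyroid hormone receptor gene Pth2r, which passed with array weights, by a log2 difference of -0.33 ± 0.09 (adjusted p = 0.115), the corticotropin-releasing hormone gene Crh by -0.45 ± 0.18 (adjusted p = 0.264) and its receptor gene Crhr1 by -0.24 ± 0.10 (adjusted p = 0.275). The median difference of the 9 was 0.07, and with each mouse left out it ranged from -0.05 (control mouse 5 left out) to 0.10 (ZnR mouse 11 left out), turning negative only in the first of these.

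**Figure D5:**
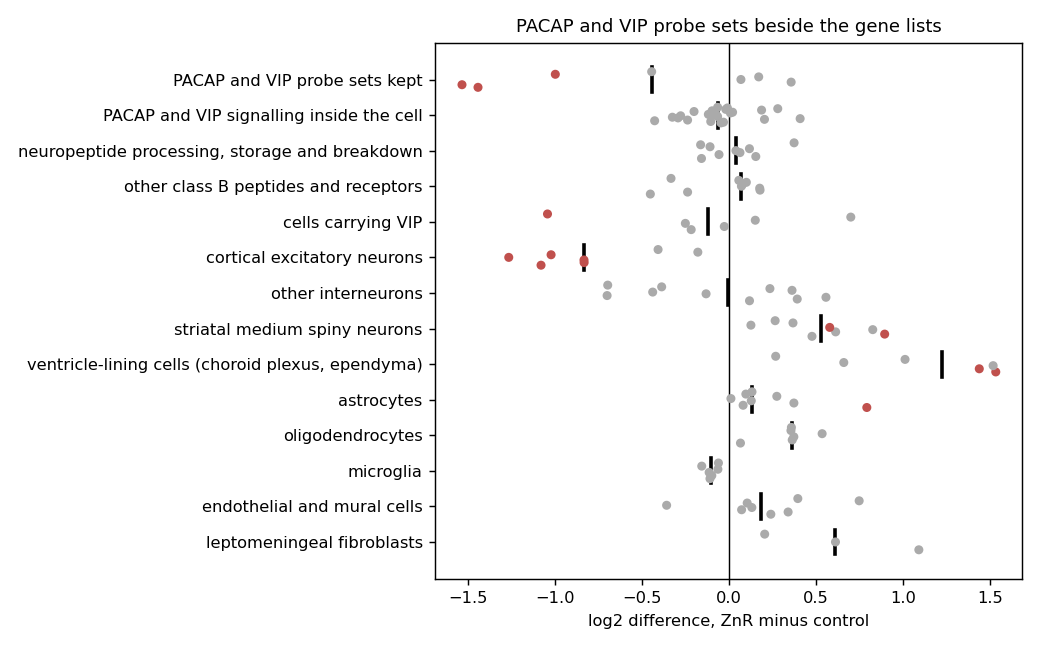
Log2 difference, ZnR minus control, of the 7 PACAP and VIP probe sets tested (top) and of each measured gene of 3 pathway lists and 10 cell type lists, 1 point per gene or probe set; red marks an adjusted p under 0.05 in limma and the black bar is the median. The pathway lists centre near 0 with no red point, excitatory neuron markers lie to the left, and striatal and ventricle-lining markers lie to the right.

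Genes with the most similar profiles over the 6 mice were found by the root mean square difference of centred log2 values. For Adcyap1 (1423427_at) the nearest 5 were the calcium-binding protein gene Cabp1 (0.129 log2 units), Exph5 (0.140), the brain-derived neurotrophic factor gene Bdnf (0.168), Crtac1 (0.181) and the synaptic organiser gene Cbln2 (0.199). All 5 were nearer than the other Adcyap1 probe set (0.229) and Vip (0.306). Cabp1 measured 6.46, 6.43 and 6.37 in ZnR mice 3, 7 and 11, against 7.67, 7.98 and 7.96 in control mice 1, 5 and 9. For Vip the nearest were the transcription factor gene Nr2f1 (0.0761), Plch2 (0.0834), the heparan sulfate polymerase gene Ext1 (0.0868), the serotonin receptor gene Htr1f (0.0955) and Il1rap (0.0964). Nr2f1 measured 8.84, 9.24 and 9.07 in the ZnR mice, against 9.84, 9.87 and 10.08 in the control mice. Since genes near Adcyap1 or Vip by this measure must be lower in ZnR mice too, their differences by diet, from -1.50 to -0.88 log2 units, are a description only.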

How the data were processed

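Total RNA of prefrontal tissue (500 ng per sample) was labelled with a 3′ IVT kit and hybridised, per the labels' protocols, to Mouse430_2 arrays from Affymetrix. The authors deposited a log2 value for each probe set and mouse; R 2.15.1 and GCRMA 2.28.0 are listed in the submitters' processing notes. GCRMA makes quantiles nearly equal between arrays and compresses low values. Levels of different probe sets were not compared. Of 45101 probe sets, 64 were array controls, and 34945 others had 1 gene symbol in the platform annotation.

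Probe sets with a log2 value above 4 on at least 3 arrays were kept (25381). The test of ZnR against control was limma's moderated, 2-sided one (version 3.58.1 under R 4.3.3, lmFit and eBayes). Its p-values were adjusted by Benjamini-Hochberg across every kept probe set, at a threshold of 0.05, and standard errors are moderated. For lists and per-mouse differences, a gene was read by its kept probe set with the highest mean. Members, 13 lists, the motif and alternatives were chosen with earlier results of these data known. Besides the members, genes were named by rule: those of each list past the threshold or among its 3 smallest p, and the 5 nearest profiles. Prkar1b, the excitatory neuron markers Camk2a and Emx1 and the VIP-cell co-markers Calb2, Prox1, Tac2, Htr3a, Chat and Crispld2 lie outside this rule. They were named after their values were seen. In simulated data of 25381 probe sets, limma recovered 12 of 50 changes of 0.5, 37 of 50 of 1 and 47 of 50 of 1.5 log2 units. There were 4 false calls among the unchanged probe sets. The simulated noise was normal, independent between probe sets and without a batch. These figures therefore do not give the power or error rate on the real arrays. Robust variances used statmod 1.5.0. Figures were drawn with matplotlib 3.10.9.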

Additional observations from a re-analysis of the deposited data

How the results depend on the processing

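The falls of Adcyap1 and Vip kept their direction under every alternative, and they passed the threshold without the filter, with a stricter one where kept, after renewed quantile normalization or median centring, with a variance trend, robust variances or array weights, and when the low-18S pair was fitted as a block. With each mouse left out, the log2 differences ranged from -1.58 to -1.28 for 1423427_at, from -1.68 to -1.36 for 1441778_at and from -1.10 to -0.91 for Vip, and from 0 to 3 member probe sets passed. Without the low-18S pair, which leaves 2 mice per diet, the differences were -1.65 (adjusted p = 0.0658), -1.45 (0.113) and -0.91 (0.113), and 0 member probe sets passed. Vipr1 passed only with array weights (-0.41). Adcyap1r1 1439042_at, not called in any fit, ranged from -0.0498 to 0.191 with each mouse left out and changed sign without ZnR mouse 11 (-0.0498), control mouse 1 (-0.000653) or the low-18S pair (-0.00738). The count of all probe sets called, 373, was 2003 with array weights, of which 54.6% were lower against 68.6%, 916 with a variance trend, 1 without the low-18S pair and 1 to 109 with each mouse left out. Pathway list genes called numbered 4 with array weights and 3 with a variance trend, and 0 otherwise. Cell type list genes called, 11, were 21 with array weights, 0 without the low-18S pair and 0 to 6 with each mouse left out. Fewer samples is the construction of the fits that leave mice out; for the others the cause was not tested. No paired analysis was possible because the mouse numbers differ between the diets. Signal over background limits Vipr2 and the second Vipr1 probe set.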

Other observations

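No gene listed for oligodendrocytes, microglia, endothelial and mural cells or leptomeningeal fibroblasts passed in the main limma fit. With array weights the mural gene Pdgfrb passed as higher (0.45, limma adjusted p = 0.0359). Oligodendrocyte markers were all on average higher (6 measured, median difference 0.36), though ZnR mice spanned -0.21 to 0.54 in the centred mean against -0.22 to -0.11 in controls. Microglia markers were all on average lower (6 measured, median -0.11). Endothelial and mural markers had a median of 0.18 over 8 genes, and leptomeningeal markers 0.61 over 3, with ZnR mice from -0.33 to 0.84 and controls from -0.63 to 0.12. At an unadjusted p under 0.05 the counts were 1, 0, 4 and 1.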
